A study of Mus musculus with 8 samples.

Results

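The insulin-like growth factor (IGF) axis was followed through 10 genes chosen by name from the 22200 genes of the deposited table: the ligand genes Igf1 and Igf2, the receptor genes Igf1r and Igf2r, and the binding protein genes Igfbp2, Igfbp3, Igfbp4, Igfbp5, Igfbp6 and Igfbp7. All 10 were found, and 6 of them had a mean of at least 10 normalised reads over the 8 libraries, the minimum set for testing, which 12673 genes of the table reached. Retinoic acid (RA) activates nuclear receptors that act on transcription, and the study used mRNA sequencing to find the genes that respond early and late in fibroblasts that lack TAF4, a component of the TFIID complex at promoters.

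The 8 libraries were of polyA RNA from immortalised mouse embryonic fibroblasts on a C57BL/6 background, every one labelled TAF4-/-, and formed 3 groups: 3 untreated libraries labelled 12 h, 3 libraries of RA for 12 h and 2 libraries of RA for 72 h. The cells came from embryos with 1 floxed and 1 null Taf4 allele, and the TAF4-null line was made from the floxed line by expression of Cre, so all libraries represent a derived cell line. No untreated library was labelled 72 h, so 72 h of RA and 72 h in culture cannot be told apart. Nothing in the labels says that replicates were separate cultures, so p-values measure the spread between these samples, which may be technical.

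Taf4a reads, 984 to 1449 in the 8 libraries, were present in every library labelled TAF4-/-, and the related gene Taf4b had 49.5 to 99.0. A conditional deletion can leave transcript outside the removed exons, so these values do not check the genotype, and the sample titles carry the tag cl1, where the study calls the TAF4-null line C3 and its TAF4-expressing parent line C1. The titles could thus refer to the TAF4-expressing line, although the study's methods name C3 cells as the source of the sequenced RNA. The genotype is given here only as labelled. Of 12 fibroblast markers, 11 had a mean of at least 10, with Thy1 under it, and their summed level was 242612 to 263271 untreated, 243180 to 253820 at 12 h and 221405 to 227302 at 72 h, lowest in both 72 h libraries. The list did not move as one. Between untreated and 72 h the Col3a1 mean went from 21176 to 7868 and that of Vim from 105234 to 102782, while Pdgfra went from 206 to 408 and Pdgfrb from 806.5 to 1143. Summed markers of epithelial (23.3 to 40.1), endothelial (39.4 to 73.5), leukocyte (44.0 to 93.6), skeletal muscle (21.9 to 49.1) and neural or glial cells (46.0 to 84.4) were low. Those of cartilage and bone summed to 428 to 674, almost wholly through Runx2 (group means 559, 530 and 477). Acan, Col2a1, Sox9 and Sp7 had group means of at most 15.8, and Bglap was not found. The adipocyte list moved with the groups too, from 108 to 144 untreated, over 152 to 183 at 12 h, to 231 to 275 at 72 h, almost wholly through Fabp4 (group means 111, 157 and 239), while Adipoq, Plin1, Cidec and Lep were under 10 in every group mean. The neural or glial sum, though low, was lower in the RA groups: 63.5 to 84.4 untreated, 49.6 to 63.0 at 12 h and 46.0 to 53.3 at 72 h. Group means were 41.3, 32.5 and 17.9 for Mbp and 24.4, 17.0 and 22.9 for Tubb3. The part of the fibroblast, adipocyte and neural or glial lists in the changes below was not tested. Rank correlations between libraries of a group were 0.981 to 0.994 (Spearman). The RA targets Cyp26b1, Rarb, Dhrs3 and Tgm2, which include enzymes of RA turnover and a receptor for RA, were all called higher at 12 h and at 72 h, with log2 changes of 1.76 to 6.51.

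In the IGF axis, IGF1 and IGF2 are secreted ligands that signal through IGF1R, a receptor tyrosine kinase that feeds the PI3K-AKT and RAS-ERK cascades. IGF2R has no kinase: it carries mannose-phosphate-tagged lysosomal enzymes and takes up IGF2 for degradation. The IGF binding proteins are secreted, hold IGFs away from or near the receptor, and are cut by proteases such as PAPP-A. IGFBP7 binds IGFs weakly and is found in the extracellular matrix and around vessels. Fibroblasts are a known source of IGFs and of several binding proteins.

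The promoter windows of the 4 genes called in a comparison below are shown first, since RA receptors bind AGGTCA-type motifs and these windows let the called genes be compared for them. Each line holds the 250 bases before an annotated start (RefSeq, GRCm38.p6), 5′ to 3′ on the strand of the gene, with matches to RA receptor motifs (on either strand) and to TATAAA (on the strand of the gene) in capitals. The receptor motif was searched as AGGTCA (in 14.0% of all 32536 windows of this length), GGGTCA (11.7%), AGTTCA (11.8%) and GGTTCA (8.81%). The windows lie at chr5:77408046-77408295 on the minus strand for Igfbp7, at chr11:99040994-99041243 on the plus strand for Igfbp4, at chr1:72824230-72824479 on the plus strand for Igfbp2 (the first of 2 annotated starts) and at chr10:87860861-87861110 on the plus strand for Igf1.
Igfbp7: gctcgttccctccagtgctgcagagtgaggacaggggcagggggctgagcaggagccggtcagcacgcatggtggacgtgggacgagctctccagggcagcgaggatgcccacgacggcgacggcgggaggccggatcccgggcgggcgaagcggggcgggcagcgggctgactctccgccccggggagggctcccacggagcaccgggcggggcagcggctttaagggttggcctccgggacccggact
Igfbp4: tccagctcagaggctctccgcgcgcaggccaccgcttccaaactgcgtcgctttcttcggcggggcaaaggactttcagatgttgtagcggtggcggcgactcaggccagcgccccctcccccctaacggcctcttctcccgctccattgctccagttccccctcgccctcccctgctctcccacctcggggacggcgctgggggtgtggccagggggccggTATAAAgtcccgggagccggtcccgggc
Igfbp2: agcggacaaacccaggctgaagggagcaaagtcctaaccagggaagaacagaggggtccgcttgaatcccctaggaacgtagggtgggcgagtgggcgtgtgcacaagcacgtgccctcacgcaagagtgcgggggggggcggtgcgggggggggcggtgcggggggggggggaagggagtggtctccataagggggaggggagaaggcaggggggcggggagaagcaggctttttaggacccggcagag
Igf1: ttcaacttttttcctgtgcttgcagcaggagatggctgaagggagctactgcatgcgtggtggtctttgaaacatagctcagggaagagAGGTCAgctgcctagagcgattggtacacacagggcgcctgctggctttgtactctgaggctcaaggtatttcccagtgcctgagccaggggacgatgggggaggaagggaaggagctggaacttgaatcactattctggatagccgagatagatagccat

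Of these 4 windows, that of Igf1 held 1 RA receptor motif, an AGGTCA whose first base lay 161 bases before the start, and the other 3 held none. Among the other genes, the windows of Igf1r and Igfbp6 held 1 each, that of Igf2r held 2, the first of 4 Igf2 windows held 2, and those of Igfbp3 and Igfbp5 held none. A motif of this kind stood in 38.6% of all windows. No window of the 10 genes held a direct repeat of the motif spaced by 1, 2 or 5 bases, the arrangement known for RA receptors, which 0.43% of all windows held. TATAAA was found in the Igfbp4 window alone among the 10 genes and in 7.55% of all windows. The windows of Igfbp7 (74.0% GC, 26 CG dinucleotides), Igfbp4 (69.2%, 22) and Igfbp2 (67.2%, 14) were richer in GC than the median window (52.4%, 6), and that of Igf1 was near it (52.8%, 5).

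The 10 genes split by level into 5 that were clearly expressed and 5 that were low. Per gene, the untreated means ran from Igf1r (1461 ± 79.7 normalised reads, SD, n = 3) over Igfbp7 (709 ± 107), Igfbp4 (360.3 ± 19.4), Igfbp2 (316 ± 74.9) and Igf2r (269 ± 21.5) down to Igf1 (8.92 ± 2.69), Igf2 (4.88 ± 1.00), Igfbp6 (3.08 ± 1.95), Igfbp3 (2.63 ± 0.70) and Igfbp5 (2.17 ± 0.62). The neighbours Igfbp4 and Igfbp2, and Igfbp2 and Igf2r, overlapped between libraries, as did each of the last 5 genes with the next. Divided by the length of the longest annotated transcript, the untreated order was Igfbp7 (584 ± 88.3 per kb), Igf1r (349 ± 19.1), Igfbp2 (241 ± 57.3), Igfbp4 (172 ± 9.27) and Igf2r (30.3 ± 2.42), each clear of the next in all libraries, with the 5 low genes between 0.361 and 2.77 per kb. At 12 h Igfbp4 (330.2 ± 9.87 per kb) stood next to Igfbp7 (999.7 ± 95.9), and Igfbp2 (309.9 ± 77.4) overlapped both Igfbp4 and Igf1r (309.6 ± 20.1). At 72 h the order was Igfbp7 (1328 ± 212), Igf1r (265 ± 8.29), Igfbp4 (159 ± 29.8), Igfbp2 (111 ± 24.6) and Igf2r (29.9 ± 0.52), each clear of the next in all libraries. The per-kb scale assumes reads spread along the transcript, as the study's methods describe; the labels describe a tag library with 1 site per transcript, for which it would not hold. The annotated Igf1r transcript (4.18 kb, of which 4.11 kb is coding) has almost no untranslated part, so its per-kb level rests on an incomplete model.

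**Figure D1:**
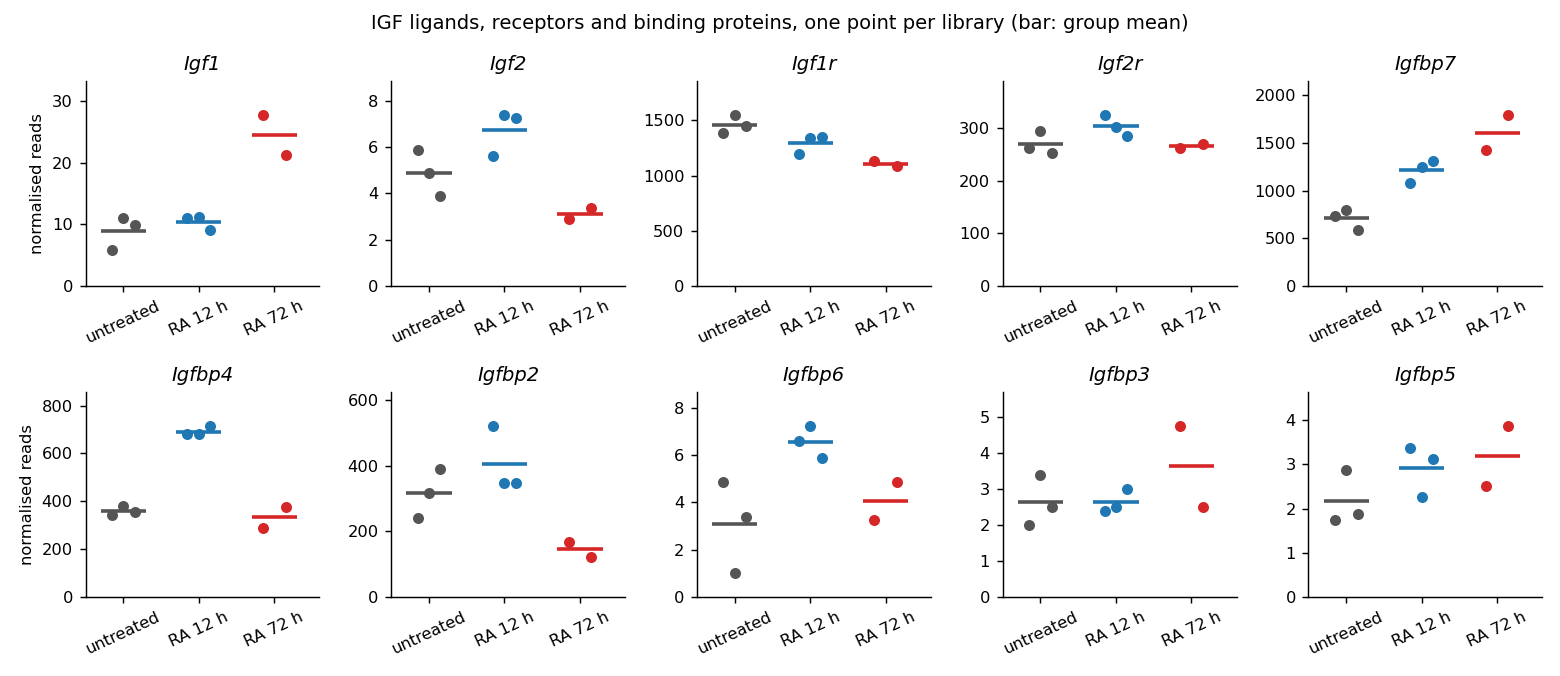
Normalised reads (y axes, linear from 0) of the 10 IGF axis genes, one point per library and a bar at the mean of each of the 3 groups. Igfbp7 is higher in all RA libraries, Igfbp4 is high at 12 h alone (679 to 715), Igfbp2 is low at 72 h alone (122 to 168) and Igf1 is highest at 72 h (21.3 to 27.8).

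Comparisons were called at an adjusted p under 0.05 with at least a 2-fold change. At 12 h of RA, 0 of the 6 tested IGF axis genes were called (limma; 2 had an unadjusted p under 0.05), where 1.11% of all tested genes were called higher and 0.308% lower. By the adjusted p alone 2 were higher, Igfbp4 and Igfbp7, and 0 lower, against 2.87% and 1.50% of all tested genes. At 72 h against untreated cells 2 were called higher, Igfbp7 and Igf1, and 1 lower, Igfbp2, where 2.15% of all tested genes were called higher and 1.52% lower. Igf1 reached the minimum for testing only through its 72 h libraries (mean 9.69 over the other 6 and 13.4 over all 8), so it could be tested only because it was high there, and nothing is read from counts or medians that include it. By the adjusted p alone Igf1r was lower too, giving 2 in each direction beside 6.08% higher and 5.41% lower overall. From 12 h to 72 h of RA 0 were called higher (Igf1 and Igfbp7 had an unadjusted p under 0.05) and 2 lower, Igfbp2 and Igfbp4, beside 0.765% and 0.734% of all tested genes, and the same 2 were those past the adjusted p alone (2.92% of all tested genes in each direction). Libraries of the compared groups did not overlap for 3 of 6 genes at 12 h, 2 higher and 1 lower (9.42% and 10.6% of all tested genes). They did not overlap for 4 of 6 at 72 h against untreated, 2 in each direction (17.2% higher and 19.4% lower overall), and for 6 of 6 at 72 h against 12 h, 2 higher and 4 lower (18.1% and 19.2% overall). The median log2 change of the 6 genes was 0.30 at 12 h, -0.07 at 72 h against untreated and -0.21 between the RA times, beside -0.02, -0.02 and -0.00 over all tested genes. The comparisons with untreated cells share the 3 untreated libraries.

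**Figure D2:**
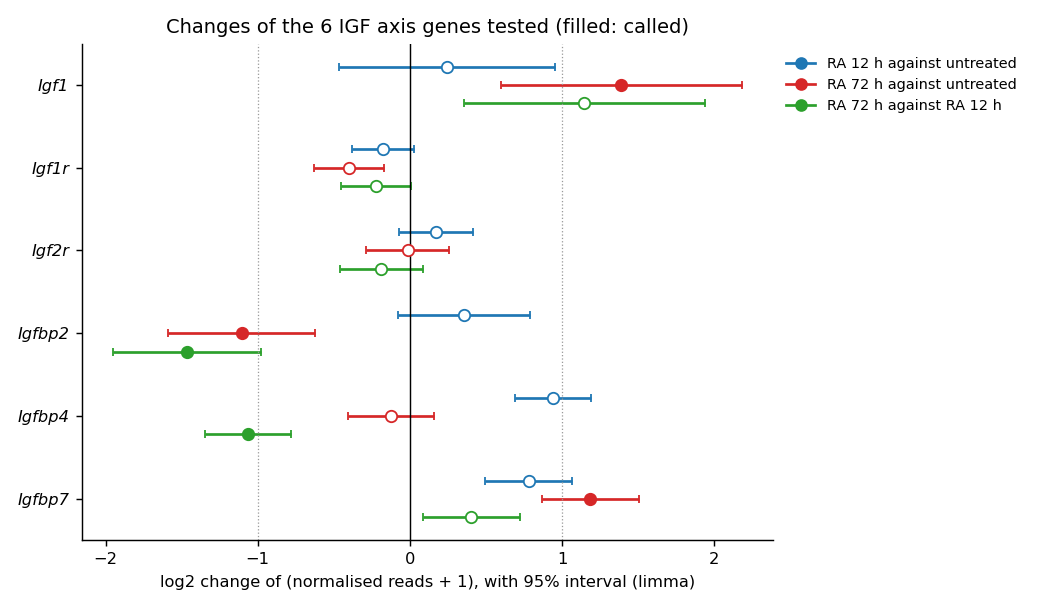
Log2 change of (normalised reads + 1) on the x axis for the 6 tested genes in 3 comparisons, with 95% intervals from limma and dotted lines at 2-fold; filled points are called. The filled points are Igfbp7, Igf1 and Igfbp2 at 72 h against untreated, and Igfbp2 and Igfbp4 at 72 h against 12 h.

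Igfbp7, whose product is the matrix-associated, low-affinity member of the family, rose with RA and was the most abundant binding protein transcript per kb in every group. Its untreated libraries read 736.5, 799 and 591 normalised reads, those of RA for 12 h 1083.5, 1245 and 1309, and those of RA for 72 h 1429 and 1793. The 3 groups did not overlap. The log2 change at 12 h was 0.78 ± 0.13 (SE; adjusted p = 0.00306, limma), a 1.72-fold rise (95% interval 1.41 to 2.09) that passed the adjusted p and stayed under 2-fold. At 72 h the change against untreated cells was 1.19 ± 0.15 (adjusted p = 0.000147), or 2.27-fold (1.82 to 2.84), and was called. The further difference between 12 h and 72 h, 0.41 ± 0.15, did not pass (adjusted p = 0.143). Igfbp7 spans 58.8 kb on the minus strand of chromosome 5 (77778265 to 77837070, mm9) with 6 exons. Its annotated span shares 85 bases with the opposite-strand gene Polr2b, whose group means were 1655, 1744 and 1475, and reads shared between them were not tested.

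Igfbp4, encoding a substrate of PAPP-A, was higher at 12 h and overlapped the untreated level at 72 h. It read 344, 382 and 356 in untreated cells, 680, 679 and 715 at 12 h, and 289 and 377 at 72 h. The 12 h libraries lay above all others, and the 72 h libraries overlapped the untreated ones. The 12 h rise was 0.94 ± 0.12 on the log2 scale (adjusted p = 0.000226), 1.92-fold (1.61 to 2.28), just under the 2-fold minimum. The 72 h value differed from untreated by -0.12 ± 0.13 (adjusted p = 0.627; 95% interval -0.40 to 0.16). Between 12 h and 72 h it fell by 1.06 on the log2 scale (SE 0.13, adjusted p = 0.00032) and was called. Without RA 72 h replicate 1 that fall was -0.87 (adjusted p = 0.00876), under 2-fold, and the 72 h difference from untreated cells was 0.07. Igfbp4 lies on the plus strand of chromosome 11 (98902558 to 98913969, mm9) and spans 11.4 kb with 4 exons.

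Igfbp2, whose product also binds integrins, was lower at 72 h. Untreated libraries read 240, 317 and 390, 12 h libraries 522, 346 and 347, and 72 h libraries 168 and 122. The 72 h libraries lay below all 6 others, and the untreated and 12 h libraries overlapped. The change at 12 h was 0.36 ± 0.20 (adjusted p = 0.406). At 72 h it was -1.11 ± 0.22 against untreated cells (adjusted p = 0.00552), 0.465 of the untreated level (0.332 to 0.650), and -1.46 ± 0.22 against 12 h (adjusted p = 0.00175). The call against untreated cells was lost without untreated replicate 3 (-0.94, adjusted p = 0.00586, under 2-fold) and without RA 72 h replicate 2 (-0.88, adjusted p = 0.0775), and that against 12 h was kept with every single library left out. Relative to its mean, Igfbp2 varied most within each group among the 5 clearly expressed genes. A shared axis carried 50.1% of the within-group variance of all genes. The highest Igfbp2 library of each group (untreated 3, RA 12 h 1, RA 72 h 1) lay on one side of it, as did RA 12 h replicate 2, the lowest Igfbp2 library at 12 h. With that axis as a term the 72 h change was -1.17 ± 0.15 (adjusted p = 5.06e-06). The axis was computed from the spread of these same libraries, so a smaller SE and p were built in and add no support. Igfbp2 (chromosome 1, 72871077 to 72899048, plus strand, mm9) ends 5.46 kb from Igfbp5, which is transcribed toward it and stayed under 4 normalised reads.

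Igf1, the ligand gene, had low values that were higher at 72 h. It read 5.88, 11 and 9.88 in untreated cells, 11, 11.3 and 9.13 at 12 h, and 27.8 and 21.3 at 72 h. Both 72 h libraries lay above the other 6, and untreated and 12 h libraries overlapped. The log2 change was 0.24 ± 0.33 at 12 h (adjusted p = 0.755) and 1.39 ± 0.37 at 72 h (adjusted p = 0.0254), 2.62-fold (1.51 to 4.54), and the 72 h value was called. The gene passed the minimum mean of 10 only through those 72 h libraries, so its p is a description of a gene let in by the group where it is high. The difference between the RA times, 1.15 ± 0.37, did not pass (adjusted p = 0.091).

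The Igf1 call rests on few reads. It was lost without untreated replicate 1 (1.15, adjusted p = 0.0882), without RA 72 h replicate 1 (1.21, adjusted p = 0.242), without RA 72 h replicate 2 (1.58, adjusted p = 0.0845) and with no filter on low values (adjusted p = 0.061), and with a pseudocount of 10 the change was 0.87. Igf1 spans 78.8 kb on chromosome 10 (87321010 to 87399792, plus strand, mm9), and long genes can collect reads along their whole span. The level that a gene of this span would have at the 25th percentile of reads per Mb over genes of at least 100 kb was 9.16 normalised reads untreated, 10.9 at 12 h and 11.2 at 72 h. The Igf1 means of 8.92 and 10.5 in the first 2 groups were no higher than that estimate, and the 72 h mean of 24.5 ± 4.6 (SD, n = 2) was above it, with the estimate at 45.8% of the value. The estimate was then subtracted in each library, and results under 1 were set to 1. This floor replaced every untreated and 12 h value of Igf1 except that of untreated replicate 2. The 72 h change was then 2.39 ± 0.40 (adjusted p = 0.0163) and the 12 h change -0.43 ± 0.36 (adjusted p = 0.595). Both sizes depend on the floor, and nothing is concluded from them. Among genes with means of 10 to 50 and spans of at least 50 kb, 1.85% were called higher at 72 h, beside 2.15% of all tested genes.

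**Figure D3:**
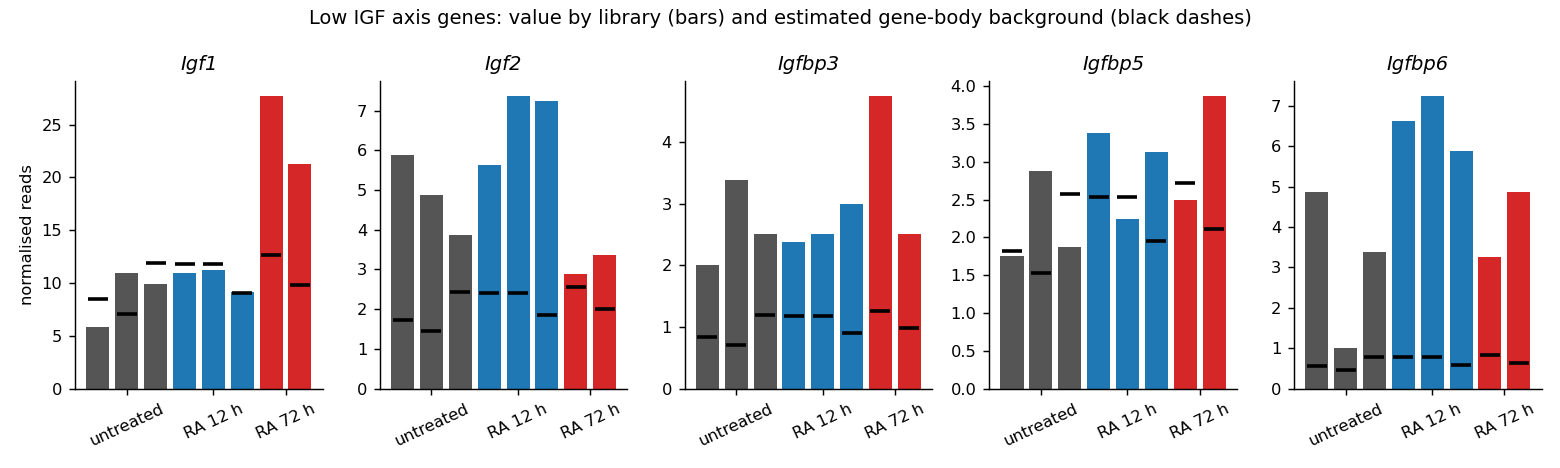
Normalised reads per library (bars, from 0) of the 5 low IGF axis genes, with the estimated gene-body level of each library as black dashes. The 2 Igf1 bars at 72 h (27.8 and 21.3) stand clear of their dashes, and the other Igf1 bars are near theirs.

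Igf2, the fetal growth ligand, was near the floor of the table in these embryonic fibroblasts and was not tested. It read 5.88, 4.88 and 3.88 in untreated cells, 5.63, 7.38 and 7.25 at 12 h, and 2.88 and 3.38 at 72 h (chromosome 7, 149836673 to 149852721, minus strand, mm9). The 72 h libraries were the lowest of the 8, and the lowest value that the table holds for any gene is 1. Its neighbour H19, the imprinted noncoding RNA 72.6 kb away on chromosome 7, was far more abundant, with 342, 405 and 336.5 untreated, 545, 593 and 489 at 12 h, and 209.4 and 209.5 at 72 h. The 3 groups of H19 did not overlap. H19 changed by 0.59 ± 0.12 at 12 h (adjusted p = 0.00971) and by -0.78 ± 0.13 at 72 h (adjusted p = 0.00159), both under 2-fold, and by -1.36 ± 0.13 between the RA times (adjusted p = 7.39e-05), which was called. The 12 h value of H19 no longer passed without untreated replicate 1 (adjusted p = 0.0606), RA 12 h replicate 1 (0.0527) or RA 12 h replicate 2 (0.0887).

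Igf1r, encoding the signalling receptor, was the most abundant of the 10 genes per gene in untreated cells. It lies on the plus strand of chromosome 7 (75097713 to 75371484, mm9). It read 1390, 1547 and 1445 untreated, 1198, 1338 and 1348 at 12 h, and 1131.5 and 1082.5 at 72 h. The groups were ordered without overlap, untreated highest and 72 h lowest. The change of -0.17 ± 0.09 at 12 h did not pass (adjusted p = 0.39). At 72 h it was -0.40 ± 0.11 (adjusted p = 0.0263), 0.759 of the untreated level (0.648 to 0.889) and far from 2-fold. The alternatives in which the adjusted p rose over 0.05 included those without untreated replicate 2 (0.0669), RA 12 h replicate 2 (0.0515), RA 72 h replicate 1 (0.121) or RA 72 h replicate 2 (0.165), and without the variance trend (0.0789).

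Igf2r, encoding the IGF2 clearance receptor, passed no test. It lies on the minus strand of chromosome 17 (12875272 to 12962530, mm9). It read 263, 294 and 252 untreated, 325, 301 and 285 at 12 h, and 263 and 269 at 72 h. The 72 h libraries lay inside the untreated range. The log2 difference was 0.17 (95% interval -0.07 to 0.42) at 12 h (adjusted p = 0.484) and -0.01 (-0.29 to 0.26) at 72 h (adjusted p = 0.963), intervals of 0.952 to 1.34-fold and 0.819 to 1.20-fold. Airn, the imprinted antisense RNA that overlaps Igf2r over 28354 bases, had group means of 2.5, 3.5 and 2.5.

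Igfbp3, Igfbp5 and Igfbp6 were under the mean of 10 and were not tested. Igfbp6, whose product prefers IGF2, read 4.88, 1 and 3.38 untreated, 6.63, 7.25 and 5.88 at 12 h, and 3.25 and 4.88 at 72 h, and its 12 h libraries were above all others. Igfbp3, which encodes the main IGF carrier of serum, read 2 to 3.38 untreated, 2.38 to 3 at 12 h, and 4.75 and 2.5 at 72 h. Igfbp5, encoding a matrix-binding member, read 1.75 to 2.88 untreated, 2.25 to 3.38 at 12 h, and 2.5 and 3.88 at 72 h. Igfbp3 and Igfbp5 overlapped between all groups. The gene-body estimate was 91.0% of the untreated Igfbp5 mean, 34.7% of that of Igfbp3, 38.3% of that of Igf2 and 19.4% of that of Igfbp6, and under 5% of every group mean of Igfbp2, Igfbp4, Igfbp7, Igf1r and Igf2r.

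Together the 6 binding protein genes summed to 959 to 1087 normalised reads per kb in untreated libraries, 1624 to 1694 at 12 h and 1450 to 1758 at 72 h, so both RA groups lay above all untreated libraries. The make-up of the sum differed between the RA times. Igfbp7 made up 50.8 to 63.2% of it untreated, 55 to 63.7% at 12 h and 81.3 to 84.1% at 72 h. Igfbp2 made up 19.1 to 31.1% untreated, 15.7 to 24.6% at 12 h and 5.33 to 8.86% at 72 h. Igfbp4 made up 16.8 to 17.7%, then 20 to 20.2%, then 9.53 to 10.2%. A share also depends on the other genes of the sum: the Igfbp4 mean itself was 360 untreated and 333 at 72 h. Igfbp3, Igfbp5 and Igfbp6 stayed under 1% together in every library. On the scale per gene, without lengths, Igfbp7 made up 44.0 to 55.4%, 47.2 to 54.9% and 75.3 to 77.8%, with the 72 h libraries again above the rest. The untreated mean share of Igfbp4 was then above that of Igfbp2 (25.9% and 22.7%), the reverse of the order per kb (17.2% and 24.2%). In bulk RNA, fewer cells that express a gene and less RNA per cell cannot be told apart.

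**Figure D4:**
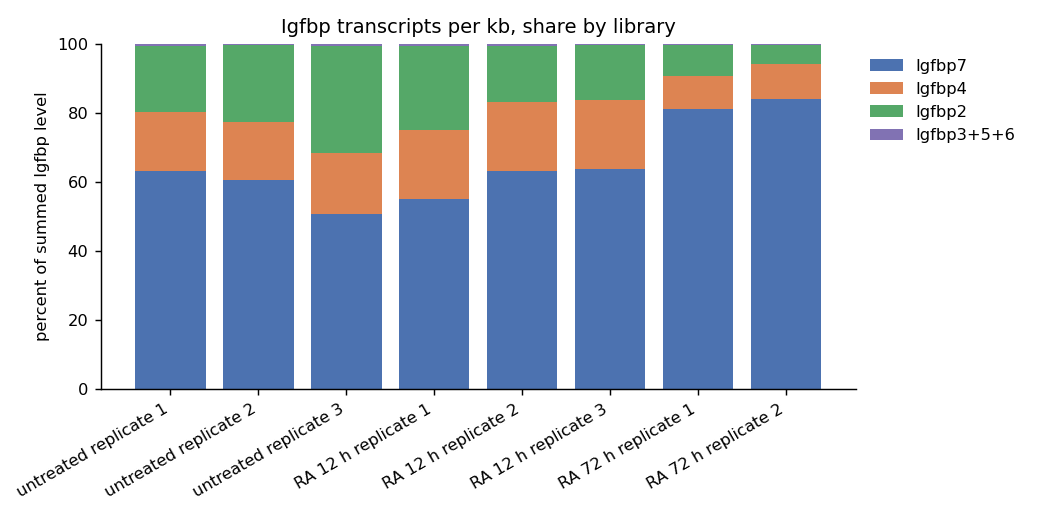
Share of each binding protein transcript in the summed level per kb (y axis, percent, stacked bars) for the 8 libraries. Igfbp7 takes 81.3 to 84.1% in the 2 libraries of RA for 72 h and 50.8 to 63.7% in the other 6.

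Beyond the 10 genes, the proteases that cut IGF binding proteins and their inhibitors had 11 of 12 genes tested and 0 called in any comparison by limma. Of all tested genes, 1.42% were called at 12 h, 3.67% at 72 h and 1.50% between the RA times. By the adjusted p 1 gene of the list was higher and 0 lower at 12 h, beside 2.87% and 1.50% of all tested genes. At 72 h 1 was higher and 1 lower, beside 6.08% and 5.41%. An unadjusted p under 0.05 was reached by 4 at 12 h and 4 at 72 h, and the share of all tested genes at that threshold was not computed. Htra1, a secreted protease that cleaves binding proteins, rose by 0.96 ± 0.12 at 12 h (574 ± 93.9 to 1111 ± 51.6 normalised reads, SD; adjusted p = 0.000211) and by 0.60 ± 0.13 at 72 h (864 ± 34.5; adjusted p = 0.00912), both under 2-fold. Mmp2, a matrix protease, read 515, 647 and 532 in the group means and did not pass at 72 h (adjusted p = 0.851).

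Among the IGF mRNA-binding proteins and imprinted genes, 7 of 10 were tested. Mest, an imprinted gene of mesoderm, fell from 545 ± 12.8 to 271 ± 10.3 at 12 h (-1.01 ± 0.10, adjusted p = 3.2e-05) and was called, and stood at 296 ± 8.31 at 72 h (-0.88 ± 0.11, adjusted p = 0.000178). Mest was the 1 gene of this list called at 12 h, where 0.308% of all tested genes were called lower. Plagl1, an imprinted zinc finger factor, rose from 1451 ± 10.9 to 2350 ± 188 at 72 h (0.69 ± 0.10, adjusted p = 0.000564), under 2-fold. Igf2bp3, which binds Igf2 mRNA, was lower at 72 h (448 ± 6.04 to 346 ± 3.01, -0.37 ± 0.11, adjusted p = 0.0422). At 12 h 1 gene of this list passed the adjusted p higher, H19, and 1 lower, and at 72 h 1 was higher and 3 lower, beside 2.87% and 1.50% of all tested genes at 12 h and 6.08% and 5.41% at 72 h.

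In the receptor adaptors and PI3K-AKT-mTOR list 29 of 30 genes were tested, and 3 were higher and 1 lower by the adjusted p at 12 h, 2 higher and 1 lower at 72 h. Of the list that is 10.3% and 3.45% at 12 h and 6.90% and 3.45% at 72 h, and the 72 h shares are near those of all tested genes (6.08% and 5.41%; 2.87% and 1.50% at 12 h). Pik3r1, encoding a regulatory subunit of PI3K, was the 1 gene called, higher at 72 h, where 2.15% of all tested genes were called higher. It read 187 ± 14.6 untreated, 362 ± 45.6 at 12 h (0.94 ± 0.12, adjusted p = 0.000386, under 2-fold) and 394 ± 4.77 at 72 h (1.07 ± 0.14, adjusted p = 0.000202). Mtor and Pik3cb, a growth kinase and a catalytic subunit, rose at 12 h by 0.57 ± 0.10 (adjusted p = 0.00558) and 0.51 ± 0.11 (adjusted p = 0.0204). Shc1, the adaptor to the RAS pathway, fell by 0.69 at 12 h (adjusted p = 0.00864) and by 0.53 at 72 h (adjusted p = 0.0384). Irs1, the docking protein next to the receptor, read 126, 84.5 and 124 in the group means and did not pass at 72 h (adjusted p = 0.968).

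In the RAS-ERK list all 11 genes found in the table were tested. At 12 h 1 was called lower and 0 higher, beside 0.308% and 1.11% of all tested genes. At 72 h 1 was called lower and 0 higher, beside 1.52% and 2.15%. By the adjusted p alone 1 was lower at 12 h and 2 at 72 h, beside 1.50% and 5.41%. None was higher by it, beside 2.87% and 6.08%. Dusp6, the phosphatase that switches off ERK and is itself an ERK target, was called lower at both times, from 136 ± 8.13 untreated to 62.6 ± 5.94 at 12 h (-1.11 ± 0.15, adjusted p = 0.000643) and 59.8 ± 6.19 at 72 h (-1.17 ± 0.17, adjusted p = 0.000558). Of 7 other family members found, 2 were tested and 0 passed, at an unadjusted p under 0.05 as well, among them Insr, the insulin receptor, at 42.4 untreated and 36.8 at 72 h. Igfbp1, 3.54 kb from Igfbp3, was at 1 in 7 of 8 libraries, the lowest value in the table. The list medians at 72 h were between -0.31 and 0.07 on the log2 scale, beside -0.02 over all tested genes.

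**Figure D5:**
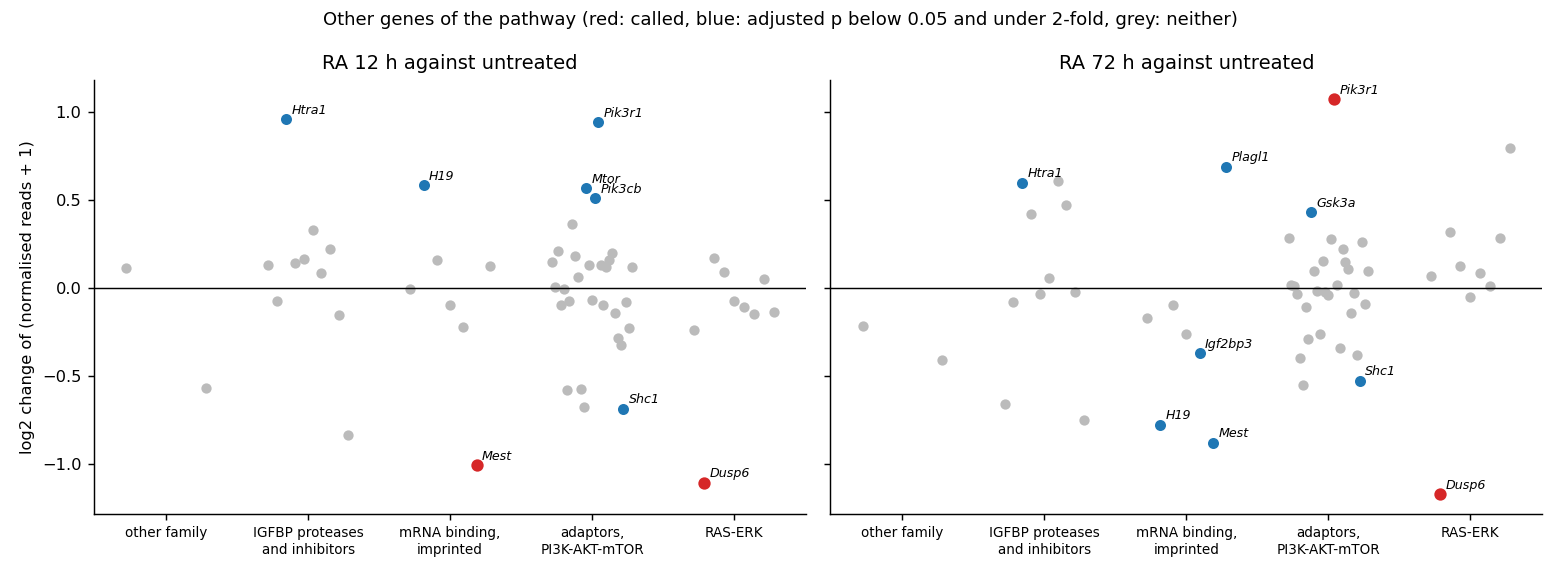
Log2 change of (normalised reads + 1) on the y axis for the tested genes of 5 further lists, apart from 3 not reported here, one point per gene, at 12 h (left) and 72 h (right) against untreated. Called genes (red) are Mest and Dusp6 at 12 h and Pik3r1 and Dusp6 at 72 h, and blue points passed the adjusted p under 2-fold.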

How the data were processed

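PolyA RNA of 8 libraries was measured as one table of 22200 genes. The authors mapped reads to mm9 with Tophat and quantified genes with Cufflinks and Ensembl annotation, per the study's methods, and deposited a score per gene, named there a normalised tag count. The values are not whole, and the sorted values were identical in the 8 columns, so the deposited score behaves as quantile-normalised reads: every library sums to 9442019, its lowest value is 1 (2883 genes per library), and depth is unknown, so no counting interval was computed. The authors named DESeq for normalisation, which does not give identical columns. 1 line without a gene was left out.

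Values were analysed as log2(value + 1) with limma 3.58.1 (R 4.3.3; linear model, empirical Bayes with a variance trend, two-sided) for genes with a mean of at least 10, all 8 libraries in one fit, with Benjamini-Hochberg adjustment over the 12673 genes of a comparison. Fold changes are on this scale and understate changes of low genes. Calls needed an adjusted p under 0.05 and 2-fold, the minimum change of the study's methods. The fit was run on simulated data with independent errors, which lack the shared axis of the real libraries, so that run does not test its effect. Coordinates are from an mm9 annotation that held 21465 (96.7%) of the identifiers; promoters are from RefSeq. The 10 genes, the further lists and the tests were chosen with earlier results of these data known. From the further lists the text names the called genes and up to 4 others each by role, and for each called IGF axis gene the 3 genes with the most similar profile. Single-gene results of 3 genes of these lists are not reported here.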

Additional observations from a re-analysis of the deposited data

Results flagged for a closer look

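Among the 6 tested IGF axis genes and H19, 3 differed between 12 h and 72 h of RA with a called result. The test was that of the difference itself, the contrast of RA 72 h against RA 12 h. In it 0.734% of all tested genes were called lower and 0.765% higher. The log2 difference between 72 h and 12 h was -1.46 for Igfbp2 (adjusted p = 0.00175, limma), -1.06 for Igfbp4 (adjusted p = 0.00032) and -1.36 for H19 (adjusted p = 7.39e-05). In each of the 3 genes both 72 h libraries were below all 3 libraries of 12 h. The untreated libraries were labelled 12 h, so the difference between treatment times and that between times in culture cannot be told apart.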

How the results depend on the processing

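Of 333 values of single genes recomputed under up to 16 alternatives, 314 kept their direction and their side of the call, 10 lost a call, 3 gained one and 6 changed sign. The signs that changed were of differences that had passed no test: Igf1 at 12 h (-0.43 with the gene-body estimate subtracted, and -0.00078 to 0.40 with 1 library left out, the lowest without untreated replicate 1), Igf2r at 72 h (0.0037 with median centring, and -0.061 to 0.049 with 1 library left out, above 0 without untreated replicate 2 and, at 0.0030, without RA 72 h replicate 1) and Igfbp4 at 72 h (-0.31 to 0.068 with 1 library left out, the highest without RA 72 h replicate 1). The cause was not tested. The Igfbp7 call at 72 h was kept in all 16 alternatives (1.02 to 1.35), the Igfbp2 call was lost in 3 (-1.33 to -0.88, with the gene-body estimate subtracted at adjusted p = 0.0579), and that of Igf1 in 6 of 15 (0.87 to 2.39, adjusted p 0.0102 to 0.242; a filter at a mean of 20 removed the gene). The 12 h change of Igfbp7 had an adjusted p of 0.0526 with the gene-body estimate subtracted. Igf1 between 12 h and 72 h was called with no variance trend, with the shared axis as a term and with the gene-body estimate subtracted (1.15, 1.20 and 2.82). The axis was computed from these same libraries, and after subtraction every 12 h value of Igf1 stood at the floor, so neither adds support.

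By the adjusted p without a minimum change, 554 genes passed at 12 h (180 called), 1456 at 72 h (465) and 740 between the RA times (190), and 2 of the IGF axis genes at 12 h (0 called). Leaving out 1 library gave 148 to 322 called genes at 12 h, the highest without untreated replicate 3. With 1 untreated or 12 h library left out, called IGF axis genes numbered 2 to 3 at 72 h and 2 between the RA times. With all libraries they were 3 and 2, beside 3.67% and 1.50% of all tested genes. The 72 h counts include Igf1, which reached the minimum for testing only through its 72 h libraries, so nothing is read from them. Changes with 1 library of 72 h left are given above for Igfbp2, Igf1 and Igfbp4. Where 1 library of 72 h was left, it was assumed to vary like the other groups. With 0 called at 12 h, the count at an unadjusted p under 0.05 with 2-fold was 0 as well.

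The replicate numbers showed no steady pairing: deviations of same-numbered libraries correlated between -0.474 and 0.420. Deviations within such small groups are tied to each other, so these correlations cannot exclude pairing. A fit with a replicate block called 174, 430 and 172 genes at 12 h, at 72 h and between the RA times, of the IGF axis genes 0, 2 and 2, and at 72 h Igf1 had an adjusted p of 0.0748 and Igf1r one of 0.0900 (0.0263 without the block). Depth could not be read from the table, so genes at a few normalised reads carry an unknown counting error, and Igf2, Igfbp3, Igfbp5 and Igfbp6 were not testable at the filter used.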

Other observations

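The genes with profiles most like those of the 4 called IGF axis genes were sought among all tested genes by the root mean square difference of log2 values over the 8 libraries, each gene centred on its untreated mean. Igfbp7 was closest to 3110001A13Rik (0.098), Snf1lk (0.10), a kinase of the AMPK family, and Nid1 (0.12), a basement membrane protein gene that read 2774 untreated. Igfbp4 was closest to Creb3l1 (0.17), a membrane-bound transcription factor, Artn (0.17), a GDNF family ligand, and Agpat9 (0.18), an enzyme of glycerolipid synthesis. Igfbp2 was closest to Cd9 (0.14), a tetraspanin, AC120871.12-202 (0.19) and Col11a1 (0.25), a fibrillar collagen chain. Igf1 was closest to Angptl4 (0.20), a secreted inhibitor of lipoprotein lipase, Hyls1 (0.22) and Cpxm2 (0.22), each with an untreated mean above that of Igf1. These are descriptions over 8 libraries of 3 groups and carry no test.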
